A study of Rattus norvegicus with 8 samples.

Results

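The 5 genes described here encode parts of the antigen presentation machinery, and they were followed in rats (Sprague Dawley) with a spinal cord hemisection, in the lower cord. They were chosen by Ensembl identifier: B2m (ENSRNOG00000017123), Cd74 (ENSRNOG00000018735), RT1-Da (ENSRNOG00000032844), RT1-Ba (ENSRNOG00000000451) and RT1-Db1 (ENSRNOG00000032708), out of 32883 genes in the table. They were grouped by function, with earlier results of these data known. The identifiers were paired with these symbols when the genes were chosen, because the count table carries no symbols. The cords were taken 23 days after the injury and gave 4 libraries from trained and 4 from untrained rats, so that both groups carry the lesion and no uninjured cord stands beside them. The injury was at T9 and the sampled lower cord was intact, per the series' design text. The sources used here do not give the kind of training, the sex and age of the rats, their MHC type or how many animals stand behind a library. A p-value here is thus set against the spread among the 8 libraries, and that spread may be technical.

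Cells show peptides to T cells on 2 kinds of surface complex. Class I complexes sit on nearly all nucleated cells and pair a polymorphic heavy chain with beta-2 microglobulin, the invariant light chain made from B2m. Class II complexes are made by antigen-presenting cells, which in the central nervous system are mainly microglia and macrophages, and each is a pair of an alpha and a beta chain. In the rat, whose MHC is called RT1, the RT1-D pair is made from RT1-Da (alpha chain) and RT1-Db1 (beta chain), and RT1-Ba gives the alpha chain of the RT1-B pair. Cd74 encodes the invariant chain, which holds the peptide groove of new class II pairs closed and guides them to the endosome. Class II transcription depends on the transactivator Ciita, which is recruited by factors bound at the X and Y boxes of these promoters. Many MHC chains are highly polymorphic between rats. Sprague Dawley is an outbred stock, so that 2 rats of one group need not carry the same RT1 alleles.

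The stretch of 200 bases before the annotated start is shown for the class I light chain and the 3 class II chains, because promoter boxes are the known control points of both classes. The sequences are those of RefSeq on GRCr8, a later build than the one named for the counts (Rnor_6.0), and were matched by symbol, as they were for all 5 genes. B2m lies at chr3:129549130-129549329 on the plus strand, RT1-Da at chr20:4515215-4515414 on the plus strand, RT1-Ba at chr20:4576857-4577056 on the plus strand and RT1-Db1 at chr20:4560163-4560362 on the minus strand. Capitals mark matches to the motifs given after the sequences, and each sequence reads 5′ to 3′ toward the gene.
B2m: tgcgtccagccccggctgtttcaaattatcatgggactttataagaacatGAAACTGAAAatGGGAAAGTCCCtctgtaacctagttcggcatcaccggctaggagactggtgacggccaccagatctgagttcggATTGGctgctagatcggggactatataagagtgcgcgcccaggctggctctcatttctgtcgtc
RT1-Da: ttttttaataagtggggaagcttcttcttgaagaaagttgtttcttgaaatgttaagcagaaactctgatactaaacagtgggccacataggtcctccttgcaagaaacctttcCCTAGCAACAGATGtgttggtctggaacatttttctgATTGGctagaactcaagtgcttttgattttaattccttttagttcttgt
RT1-Ba: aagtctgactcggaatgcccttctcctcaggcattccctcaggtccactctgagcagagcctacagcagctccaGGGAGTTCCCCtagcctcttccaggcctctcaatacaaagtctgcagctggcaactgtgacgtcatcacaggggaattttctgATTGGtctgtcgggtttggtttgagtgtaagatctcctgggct
RT1-Db1: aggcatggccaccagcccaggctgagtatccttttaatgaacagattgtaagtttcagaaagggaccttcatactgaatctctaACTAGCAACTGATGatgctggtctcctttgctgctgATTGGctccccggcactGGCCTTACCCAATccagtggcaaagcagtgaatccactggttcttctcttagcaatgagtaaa

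Motifs were searched on both strands from 250 bases before to 50 after the start, in these genes and in all 33469 promoters of the table. The core of the Y box, CCAAT, appears in the sequences above mostly as its reverse complement ATTGG. This core was found in all 5 promoters, Cd74 included, and in 37.5% of all promoters. The X box consensus was matched in RT1-Da alone of the 5 (CCTAGCAACAGATG), with a share of 0.0717% among all promoters. With 1 mismatch allowed it was also found in RT1-Db1 (ACTAGCAACTGATG), and the share among all promoters was then 1.71%. B2m alone held the interferon-stimulated response element (GAAACTGAAA), which 3.92% of all promoters hold. The kappaB motif was found in B2m (GGGAAAGTCCC, which matches on both strands), Cd74, RT1-Ba and RT1-Db1 and in 47.3% of all promoters. It overlaps a Y box core in RT1-Db1. These are matches of letters in the reference strain, and nothing was measured at these sites here.

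The 8 libraries held 192472 to 453390 UMIs each. A UMI, or unique molecular identifier, is a random tag that lets PCR copies of one captured transcript be counted once. The 5 genes together had 5027 UMIs, of which B2m supplied 4710 (93.7%) and the 4 class II genes 317. Levels are given in CPM, the count scaled to a common library size with TMM factors. Because the tags come from the 3′ end, 1 transcript gives at most 1 UMI whatever its length, but genes can differ in how well their 3′ end is captured and annotated. A level compared between genes is therefore one of UMIs in CPM, not of transcripts in the cell. In whole tissue, fewer cells of a type and less RNA per cell cannot be told apart. The tissue label and its immune cells were not checked against other marker genes, since the identifiers of the table could not be paired with symbols beyond these 5.

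No difference between trained and untrained cords was detectable in any of the 5 genes at this depth. None of them passed the test of trained against untrained libraries, where the share of all genes called was 0% (edgeR quasi-likelihood test, Benjamini-Hochberg adjusted p under 0.05, 0 of 4086 genes; 52 at an unadjusted p under 0.05, and 0 past the threshold in DESeq2 and in limma-voom). B2m, Cd74 and RT1-Da had enough counts for that test. RT1-Ba and RT1-Db1 did not pass the filter on low counts and were read from a fit over all 13048 genes with a UMI, in which 6 genes, 0.046%, were called. The median log2 fold change of the 3 genes that passed the filter was -0.01, beside 0.01 over all 4086. With libraries of the same number compared as pairs, again none of the 5 passed, where 0.0489% of the genes past the filter (2 of 4086) and 0.138% of all genes with a UMI (18 of 13048) were called in edgeR. Trained and untrained libraries overlapped for all 5 genes, and failed to overlap for 1.1% of the 4086.

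B2m, the class I light chain, was an abundant transcript of this tissue, rank 58 by UMIs of the 13048 genes detected. Untrained libraries 1 to 4 stood at 1519, 1969, 2838 and 2036 CPM. Trained libraries 1 to 4 stood at 1979, 1688, 2261 and 2367 CPM. The lowest and the highest of the 8 were both untrained, so that the trained libraries lay inside the untrained range. The group means were 2090 ± 549 CPM untrained and 2074 ± 305 CPM trained (SD, n = 4 each). The log2 fold change was -0.01 ± 0.22 (SE; 95% interval -0.48 to 0.46, edgeR adjusted p = 0.999979), an interval that excludes a 2-fold change in either direction for this gene taken singly. With libraries of the same number compared as pairs (replicate number as a block) it was 0.02 ± 0.14 (95% interval -0.28 to 0.32, edgeR adjusted p = 0.999505). The trained library was the higher one in 2 of 4 pairs, by log2 differences of 0.38 for number 1 and 0.22 for number 4, and the lower one by -0.22 for number 2 and -0.33 for number 3.

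**Figure D1:**
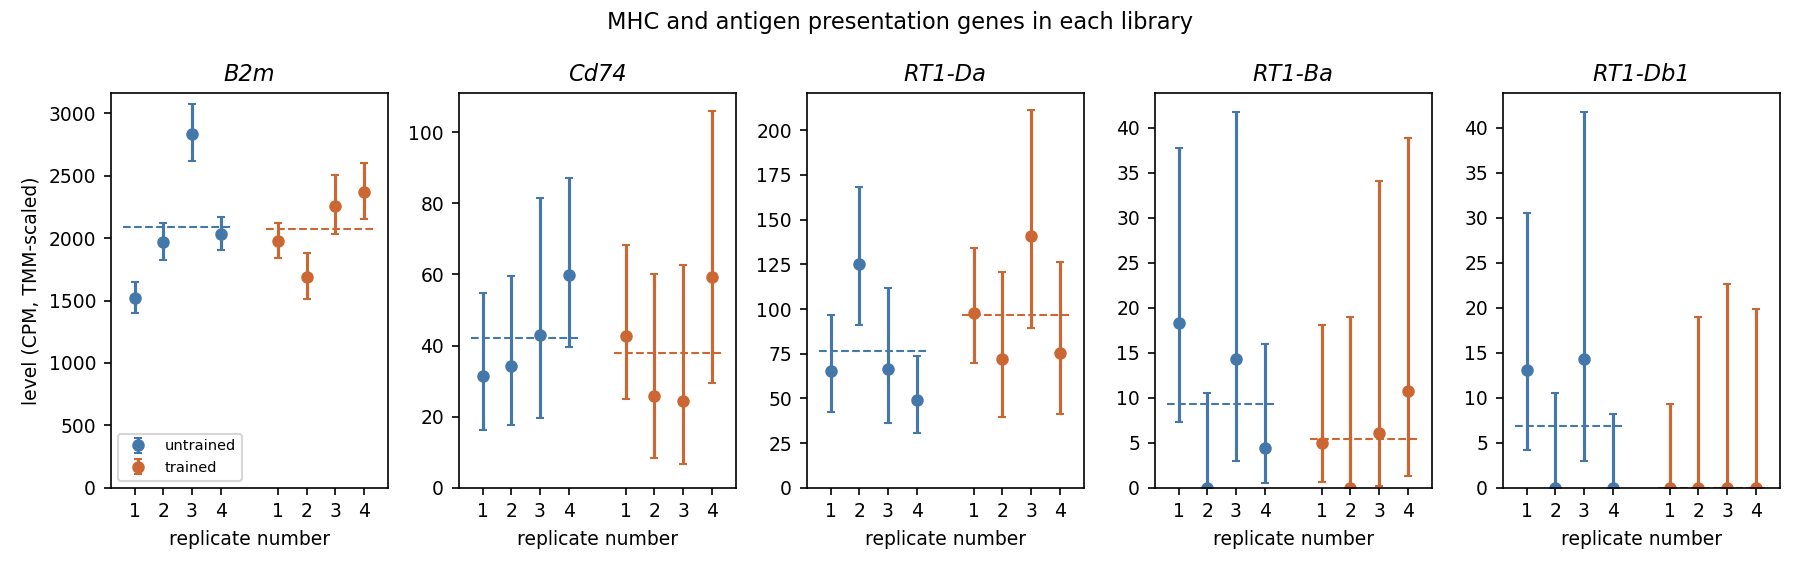
Level of each gene in CPM (linear axes starting at 0, a scale per gene) in the 4 untrained (blue) and 4 trained (orange) libraries, by replicate number. Points are libraries, bars the exact 95% Poisson interval of the UMI count, dashed lines the group means. B2m has narrow bars and libraries that stand apart within a group, whereas the bars of Cd74 and RT1-Ba mostly overlap, and RT1-Db1 is at 0 in 6 of 8 libraries.

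Cd74, the invariant chain, was a low transcript in comparison, with 97 UMIs in the 8 libraries. It stood at 31.4, 34.1, 42.9 and 59.9 CPM in untrained libraries 1 to 4. It stood at 42.7, 25.7, 24.5 and 59.2 CPM in trained libraries 1 to 4. The highest library of each group was the one numbered 4, at nearly the same level, and the groups overlapped almost completely. The means were 42.1 ± 12.9 CPM untrained and 38.0 ± 16.4 CPM trained (SD, n = 4 each), and the log2 fold change was -0.13 ± 0.36 (SE; 95% interval -0.89 to 0.63, edgeR adjusted p = 0.999979). As pairs it was -0.06 ± 0.32 (edgeR adjusted p = 0.999505), with the trained library higher in 1 of 4 pairs. A 2-fold change lay outside both intervals, but these cover 1 gene at a time.

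RT1-Da, the alpha chain of RT1-D, was the most counted of the class II genes here, with 195 UMIs. Untrained libraries 1 to 4 stood at 65.5, 125, 66.7 and 48.8 CPM. Trained libraries 1 to 4 stood at 97.9, 72.0, 141 and 75.3 CPM. Trained library 3 and untrained library 2 stood highest, and the other untrained libraries all lay below the trained ones. The means were 76.5 ± 33.4 CPM untrained and 96.6 ± 31.8 CPM trained (SD, n = 4 each). The log2 fold change was 0.33 ± 0.33 (SE; 95% interval -0.36 to 1.01, edgeR adjusted p = 0.999979) and as pairs 0.33 ± 0.27 (95% interval -0.24 to 0.90, edgeR adjusted p = 0.993559). The trained library was higher in 3 of 4 pairs, with log2 differences of 0.54, 1.01 and 0.56 in numbers 1, 3 and 4, while number 2 went the other way by -0.74. The unpaired log2 fold change depended on single libraries: it was 0.69 without untrained library 2, 0.12 without trained library 3 and 0.14 without untrained library 4, each short of the threshold in edgeR.

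**Figure D2:**
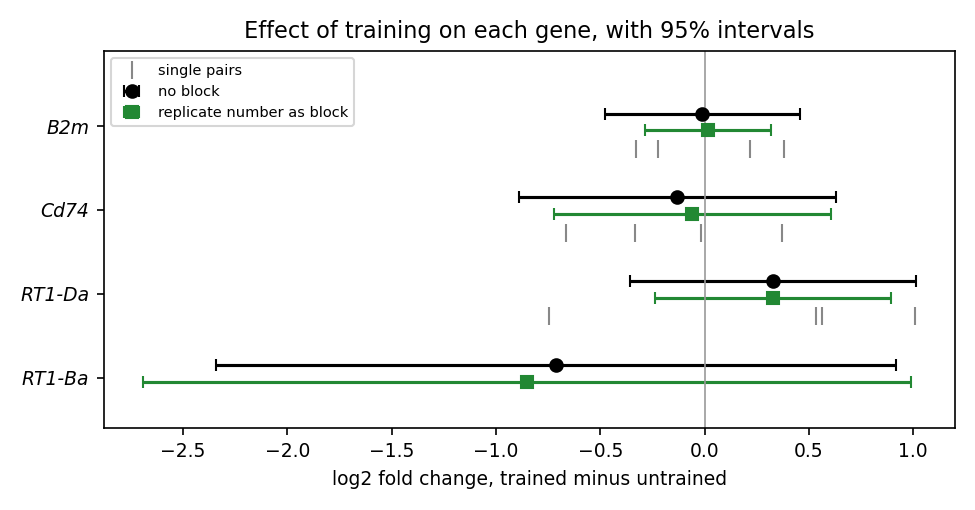
Log2 fold change of trained minus untrained libraries for B2m, Cd74, RT1-Da and RT1-Ba, with 95% intervals from edgeR without (black circles) and with (green squares) the replicate number as a block, and the differences of the 4 single pairs as grey ticks (not drawn for RT1-Ba, where counts of 0 enter). All 8 intervals cross 0, and those of RT1-Ba are the widest. RT1-Db1 is left out, as it had no UMI in trained libraries.

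RT1-Ba, the alpha chain of RT1-B, had 17 UMIs in all. Untrained libraries 1 to 4 held 7, 0, 3 and 2 UMIs, which is 18.3, 0, 14.3 and 4.44 CPM. Trained libraries 1 to 4 held 2, 0, 1 and 2 UMIs, which is 5.02, 0, 6.13 and 10.8 CPM. Both libraries numbered 2 were at 0, which allows up to 8.54 CPM in the untrained and 15.4 CPM in the trained one (3 UMIs of the scaled library size, counting error only). The log2 fold change was -0.71 ± 0.83 (SE; 95% interval -2.34 to 0.92, edgeR adjusted p = 0.991937), so that neither a 2-fold fall nor a lack of change was excluded at this depth. The untrained library 1 carried much of that difference: without it the log2 fold change was 0.04.

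RT1-Db1, the beta chain of RT1-D, was seen in 2 libraries only, untrained 1 with 5 UMIs and untrained 3 with 3. These correspond to 13.1 CPM (exact 95% Poisson interval 4.25 to 30.6) and 14.3 CPM (2.95 to 41.7). The other untrained libraries, 2 and 4, were at 0 like the 4 trained ones, and a count of 0 allows up to 8.54 and 6.66 CPM there and between 7.53 and 18.4 CPM in the trained libraries. Over the groups the count is 8 UMIs against 0, of which untrained library 1 alone supplied 5. A fold on so few is not read as a size, and its values appear only under the processing choices below. The trained group was also the shallower one, with 1022520 UMIs of all genes against 1443975 in the untrained group. The gene missed the threshold (edgeR unadjusted p = 0.0101, adjusted p = 0.984591). As pairs it missed it too (edgeR unadjusted p = 0.0437, adjusted p = 0.998094). It was the 1 gene of the 5 with an unadjusted p under 0.05. In the same edgeR fits over all 13048 genes with a UMI, 332 genes were under 0.05 without pairing and 386 as pairs. The 2 libraries with RT1-Db1 UMIs were also the 2 with the most RT1-Ba UMIs, whereas their RT1-Da levels, 65.5 and 66.7 CPM, were the middle ones of the 4 untrained libraries.

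The chains of the RT1-D pair were therefore counted very unequally. RT1-Da had 195 UMIs in 8 libraries and RT1-Db1 had 8 in 2 libraries. Trained library 3, with the highest RT1-Da level of all (141 CPM, 23 UMIs), had no RT1-Db1 UMI, and neither had untrained library 2 with 44 UMIs of RT1-Da. Class II chains form a family of similar genes, many of them polymorphic. The sources used here do not say how the counting treated reads that fit more than 1 gene or which RT1 alleles the rats carried, and these counts are uncertain to that extent.

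Against B2m in the same library, a ratio that needs no scaling, the class II genes held nearly the same place in both groups. The 4 class II genes together gave 8.45, 8.09, 4.87 and 5.56 UMIs per 100 B2m UMIs in untrained libraries 1 to 4. They gave 7.36, 5.79, 7.59 and 6.14 in trained libraries 1 to 4. The means were 6.74 ± 1.79 and 6.72 ± 0.89 (SD, n = 4 each), and the trained libraries all lay inside the untrained range. On the log2 scale the mean ratio differed by 0.03, far less than the SD of 0.39 among untrained and 0.19 among trained libraries. No test was made of this sum of genes.

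The near equality of the sums joined genes with unlike values. Cd74 alone gave 2.06 ± 0.63 UMIs per 100 B2m UMIs in untrained and 1.82 ± 0.63 in trained libraries, and RT1-Da alone 3.85 ± 1.90 and 4.66 ± 1.28 (SD, n = 4 each). Both differences were smaller than the SD within a group. Untrained library 3 had the highest B2m level and the lowest summed ratio, and its ratio of 4.87 had a counting interval of 3.23 to 7.06 (exact Clopper-Pearson, 95%). That of untrained library 1, the highest at 8.45, was 6.18 to 11.3. The intervals of these extreme libraries overlapped in part, which does not show that counting error covers their difference. That difference was not tested.

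**Figure D3:**
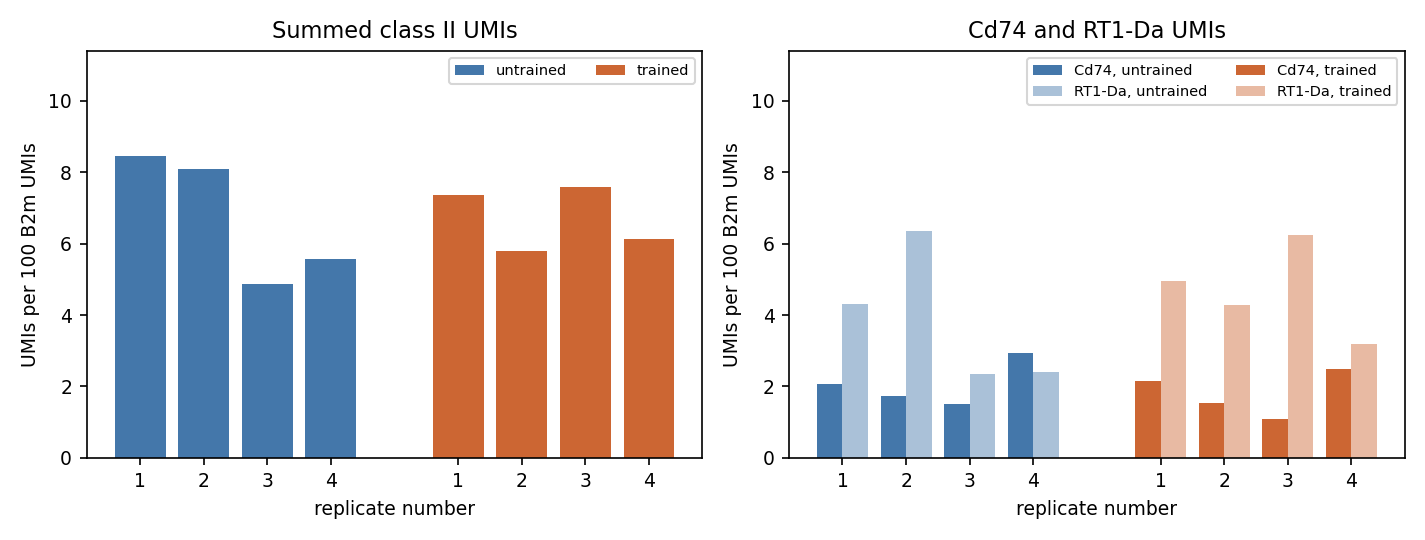
UMIs per 100 B2m UMIs in each library, by replicate number, untrained in blue and trained in orange; left, the 4 class II genes summed, right, Cd74 (dark bars) and RT1-Da (pale bars). Bars start at 0 and are single libraries without error bars. The summed ratio lies between 4.87 and 8.45, and RT1-Da exceeds Cd74 in every library but untrained 4.

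The proportion of RT1-Da to Cd74 varied from library to library, and the lowest and highest values are given with intervals that cover counting error only. There were 0.81 RT1-Da UMIs per Cd74 UMI in untrained library 4 (22 against 27 UMIs, exact 95% interval 0.44 to 1.49) and 5.75 in trained library 3 (23 against 4, interval 1.96 to 22.9). The other 6 libraries had ratios of 1.27 to 3.67. As the extremes of 8 libraries these were picked by their values, and no test was made of the ratio. The library numbered 4 had the lowest ratio of its group in both, with 1.27 in the trained one. The group means were 2.03 ± 1.21 untrained and 3.03 ± 1.92 trained (SD, n = 4 each), and they differed by less than either SD.

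B2m differed far more between libraries of one group than between the group means. The variance of B2m over the 8 libraries was 20.6 times what counting alone gives, more than for 97.4% of the 4086 genes, although this measure grows with abundance. In untrained libraries it was 39.5 times and in trained ones 8.71 times. The biological coefficient of variation of B2m in the model was 22.0%, near the middle of all genes and higher than for 54.4% of them. The model takes counting error out, but it draws each value toward those of other genes, most where counts are few. For Cd74, with far fewer UMIs, the variance was 1.26 times that of counting, below the median of 1.94 over the 4086 genes. Its CPM varied by 34.4% over the 8 libraries (SD over mean), where counting alone gives 30.9%. Its biological coefficient of variation was 21.5%, near the median of 21.4% and higher than for 50.5% of the genes. On 97 UMIs, the closeness of this value to that of B2m does not show a like spread. RT1-Da stood at 3.41 times, and its biological coefficient of variation of 26.6% was higher than for 82.4% of the genes. For RT1-Da it was 5.50 times in untrained and 1.82 times in trained libraries, but the SDs in CPM were nearly equal (33.4 untrained, 31.8 trained). Untrained library 2 and trained library 3 each stood above the others of their group. The highest B2m level was 1.87 times the lowest, that of Cd74 2.45 times and that of RT1-Da 2.89 times.

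Each group has libraries numbered 1 to 4 in their titles, and same-numbered libraries deviated together across the genes of the table. The levels of the 5 genes were also tested for a difference between numbers, whatever the group. None passed, in a test that called 16% of the genes that passed the filter and 6.32% of all genes with a UMI (edgeR quasi-likelihood test with 3 degrees of freedom, training as a term, 654 of 4086 and 825 of 13048 genes; 1277 and 1914 at an unadjusted p under 0.05). B2m came nearest with an edgeR adjusted p of 0.164. Its levels were 1519 and 1979 CPM for number 1, 1969 and 1688 for number 2, 2838 and 2261 for number 3 and 2036 and 2367 for number 4, untrained first. Cd74 and RT1-Da had edgeR adjusted p of 0.309 and 0.337, RT1-Ba 0.499 and RT1-Db1 0.674. RT1-Ba passed in limma-voom (adjusted p = 0.0322, the lowest over its alternatives, the highest being 0.491), on its 17 UMIs. RT1-Ba was read there from the fit over all genes with a UMI, whose share of genes called was not counted. Among the 4086 genes past the filter, limma-voom called 764.

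The genes whose pattern over the 8 libraries was most like these were sought among 4083 others by the Pearson correlation of log2 CPM. For Cd74 they were ENSRNOG00000025448 (r = 0.97), at 18.4 to 79.9 CPM, and ENSRNOG00000020684 (r = 0.96), at 36.0 to 109 CPM. For B2m they were ENSRNOG00000011237 (r = 0.94), at 65.5 to 171 CPM, and ENSRNOG00000058393 (r = 0.93), at 46.3 to 110 CPM. These are the highest of 4083 values over 8 libraries that share depth and numbering, and are given as a description. The CPM of Cd74 varied by 34.4% where counting alone gives 30.9%, so its pattern is barely resolved from counting error. None of the 4 passed the test of training, which called 0 of the 4086 genes. Their log2 fold changes were -0.32, -0.21, 0.07 and 0.05, with an edgeR adjusted p of 0.999979 each. Picked for following Cd74 or B2m in these libraries, they are no separate evidence on training.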

How the data were processed

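RNA of the lower spinal cord was made into CEL-Seq2 libraries and sequenced on a HiSeq1500, per the labels' protocols. The authors deposited raw UMI counts of 32883 Ensembl genes in 8 libraries. HISAT2 2.0.4, HTSeq 0.6.0 and the build Rnor_6.0 are named in the submitters' processing notes. For the UMI step, strand setting and annotation release: not given in the sources used here. None of the 47357 entries of the RefSeq gene table (GRCr8) matched an identifier, so lists of other antigen presentation, interferon and cell type genes could not be tested.

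Counts were analysed in R 4.3.3 with edgeR 4.0.16 (filterByExpr, minimum count 10; TMM; quasi-likelihood F test over all 8 libraries, no covariate; Benjamini-Hochberg adjustment over all genes of the fit). The filter kept 4086 genes. Standard errors are the fold change over the square root of F. CPM uses TMM-scaled totals of the kept genes, and log2 CPM adds a prior count of 2. DESeq2 1.42.0 and limma 3.58.1 (voom) were alternatives. The edgeR tests were tried on counts simulated for the kept genes with the same spread for every gene. That trial does not cover RT1-Ba and RT1-Db1, which the filter dropped. Deviations of same-numbered libraries from their group means correlated at 0.30 to 0.53 across the kept genes, all above the limit of 0.1, so numbers were taken as pairs from the data alone, since the labels give a number no meaning. Intervals and limits of 0 counts cover counting error only. All 5 genes are named by rule, and for each of Cd74 and B2m the 2 genes most like it. Members and lists were chosen with earlier results of these data known.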

Additional observations from a re-analysis of the deposited data

How the results depend on the processing

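None of the 5 genes passed the threshold for training under any alternative run, with or without pairing. RT1-Da kept its sign in all of them (log2 fold change 0.12 to 0.73). RT1-Db1 (-4.64 to -0.77, on 8 UMIs) had no UMI in the trained libraries, so its negative sign was fixed in advance. The size of its values depends on how counts of 0 are handled. A filter of 5 CPM in 4 libraries dropped RT1-Db1. B2m, near 0, changed sign in limma-voom (0.0071), with the replicate block (0.018), without untrained 3 (0.163), trained 1 (0.012) or trained 2 (0.069), and over single left-out libraries ran from -0.136 to 0.163. With the block it was -0.071 on library totals alone, -0.026 with no filter and -0.019 on counts corrected for the limit that a UMI of 6 bases would set, and -0.107 to 0.122 without 1 number. Cd74 ran from -0.361 to 0.137 (without untrained 4), and with the block was 0.018 in limma-voom and -0.292 to 0.060 without 1 number. RT1-Ba ran from -1.10 to 0.041 (without untrained 1), and with the block from -1.57 to 0.052 (without number 1). Of all genes, 6 passed with no filter and 2 with the replicate block. The blocked count was 1 with median-ratio scaling, 1 on library totals, 1 on corrected counts, 0 in DESeq2, 18 with no filter and 0 to 5 without 1 number. For the replicate number, RT1-Ba passed in limma-voom (adjusted p = 0.0322). The class II over B2m difference was -0.21 for Cd74 alone and -0.118 to 0.147 without 1 library. The causes were not tested. Library totals alone, and no filter or corrected counts with the block, were chosen after seeing the data. Depth limits RT1-Ba and RT1-Db1 most, at 17 and 8 UMIs.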
